A study of Homo sapiens with 6 samples.

Results

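The ERBB receptors, the ligands that activate EGFR, the protease ADAM17 that sets these ligands free and the feedback inhibitor ERRFI1 were read in an established human line of pancreatic ductal cancer, PANC-1, after exposure to the kinase inhibitor anlotinib. The drug is known above all for its action on VEGF, FGF and PDGF receptors. Affymetrix PrimeView arrays were hybridized with RNA of 3 samples that received anlotinib at 5.535 μM for 48 h and of 3 samples that received the solvent DMSO for 48 h, all in medium with serum, at a dose that inhibits the growth of this line. Of the 10 genes chosen by name, 8 had probe sets annotated to exactly 1 gene symbol: EGFR, ERBB2, ERBB3, HBEGF, EREG, TGFA, ADAM17 and ERRFI1. AREG and BTC, which encode the ligands amphiregulin and betacellulin, had no such probe set and were not analysed here. The 8 genes were read by 27 of the 39219 probe sets in the table, 13 for receptors, 10 for ligands, 3 for ADAM17 and 1 for ERRFI1, and all 27 passed the filter on variable signals.

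EGFR and its relatives are receptor tyrosine kinases that pair on binding of a ligand and then signal through RAS and ERK, PI3K and STAT3. EGFR binds the ligands studied here, ERBB2 binds no known ligand and serves as a partner, and ERBB3, whose own kinase is weak, binds neuregulins. The ligands are made as precursors anchored in the plasma membrane, and ADAM17 cuts HBEGF, EREG and TGFA from the cell surface. ERRFI1, also called MIG6, binds the kinase domain of EGFR and blocks it, and its transcript is itself induced by receptor signaling. In the normal pancreas and in ductal cancer, EGFR and TGFA are known for their part in the change of acinar cells into duct-like cells.

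Each value is a log2 signal made with RMA, so a difference of 1 is a 2-fold change. Signals in the table ran from 3.716 to 15.16, and the median of an array was between 7.71 and 7.77. Pearson's r across all tested probe sets was 0.998 within either group and 0.977 to 0.978 between the groups. All 5 markers of the labelled cell type (KRT7, KRT8, KRT18, KRT19 and VIM) were measured, with signals of 8.51 to 14.61 in DMSO and 8.19 to 14.40 with anlotinib, and 4 of them, the keratins, were lower with anlotinib at a false discovery rate (FDR) under 0.05 by −0.26 to −0.75. Of 15 markers of leukocytes, endothelial cells, acinar and endocrine cells and fibroblasts, 8 were measured, between 4.99 and 6.79 in DMSO and between 4.89 and 6.66 with anlotinib. The highest of these 8 lay above 33.2% of the tested probe sets. The part of these markers in the results that follow was not tested. In RNA of whole cultures, fewer cells that express a gene and less of its RNA per cell cannot be told apart.

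HBEGF rose by more than 2-fold with anlotinib at both of its probe sets, and EGFR did so at 1 of 6. ADAM17 at 3 of 3 probe sets, EGFR at 3 more and EREG at 3 of 4 were higher at an FDR under 0.05 but by less than 2-fold, ERBB2 and ERRFI1 were lower by less than 2-fold, and the groups overlapped for TGFA and ERBB3. A probe set was called when it differed by 2-fold or more and had an FDR under 0.05 with limma, a test that shares variance across probe sets. By these criteria 3 of 27 probe sets were called higher and 0 lower, against 2.38% higher and 1.71% lower (4.09% in either direction) among all 39063 tested probe sets. At an FDR under 0.05 without the 2-fold limit, 12 of the 27 were higher and 3 lower, and 28.3% of all tested probe sets passed in each direction (56.6% in either). The members' median log2 fold change was 0.15, and that of all tested probe sets was −0.02. The 3 lower ones were 2 of ERBB2 and the 1 of ERRFI1. With each gene read at its brightest probe set, judged by mean signal across arrays, 1 of the 8 genes was called higher and 0 lower, against 2.10% and 1.91% (4.01% in either direction) of 15253 genes. The 3 DMSO and 3 anlotinib signals did not overlap at 17 of the 27 probe sets, 14 with anlotinib higher and 3 with it lower, and this held for 31.5% and 31.6% of all tested probe sets (63.1% in either direction).

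**Figure D1:**
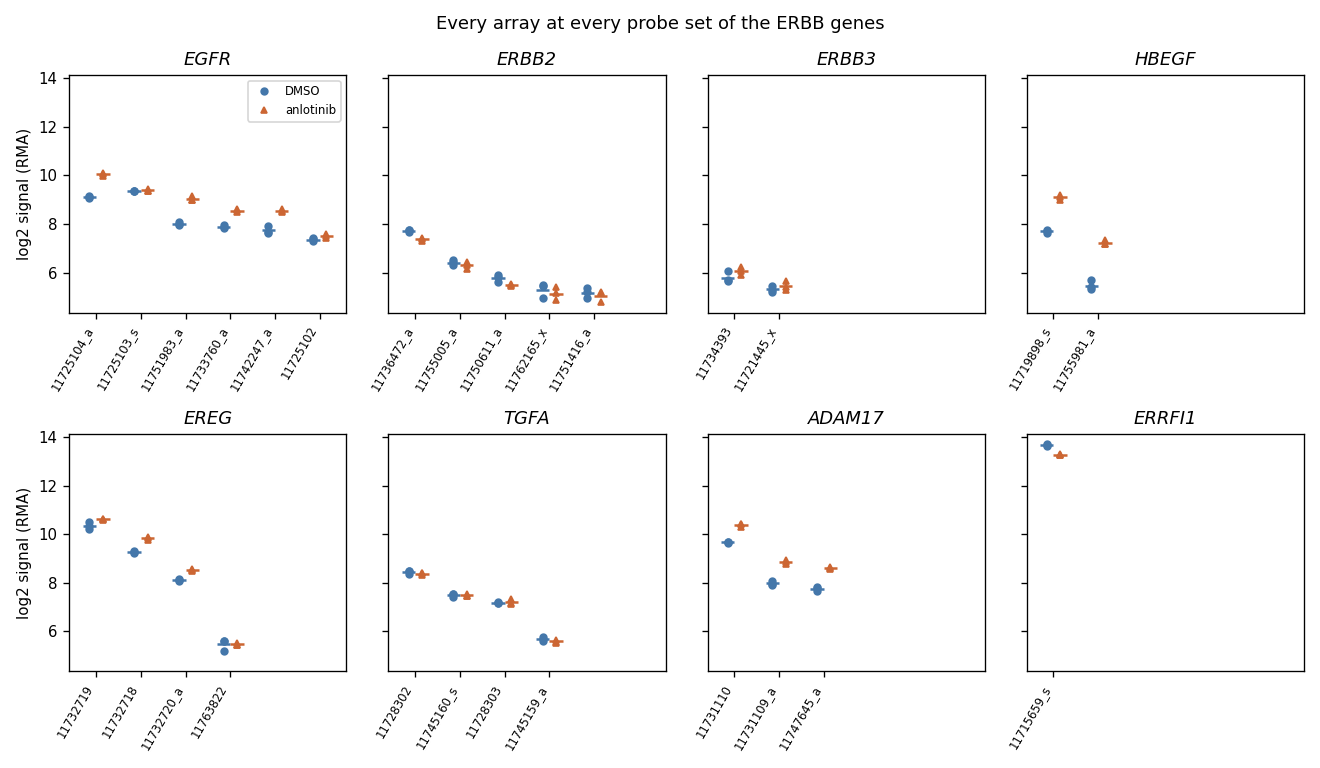
Log2 signal (RMA) of each array, 3 DMSO (circles) and 3 anlotinib (triangles), at each probe set of the 8 genes, with the group mean as a short line. Both groups of HBEGF are apart at both probe sets, EGFR is apart clearly at 4 of 6, and the points of TGFA lie on top of each other.

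HBEGF encodes the heparin-binding ligand of EGFR, which is also the receptor of diphtheria toxin. At its brightest probe set (11719898_s_at) the DMSO arrays read 7.62, 7.71 and 7.76 and the anlotinib arrays 9.13, 9.0 and 9.18. Every treated array was above every control array, with a gap far larger than the spread within a group. The log2 fold change was 1.41 (SE 0.06, n = 3 per group, adjusted p = 3.64e-06 from limma), a 2.65-fold increase. The second probe set (11755981_a_at) read 5.31, 5.68 and 5.41 in DMSO and 7.19, 7.16 and 7.35 with anlotinib. Its log2 fold change was 1.77 (SE 0.10, adjusted p = 1.04e-05 from limma), or 3.4-fold. Its DMSO signals were below 5.97, the lower quartile of the table. Of the 15253 genes, 134 had a higher log2 fold change than HBEGF at the brightest probe set. EGFR and HBEGF are among the genes that the study says it picked at random from its array results for PCR. It reports the same direction by PCR for those genes. The pick was made from these arrays, so their direction here is not evidence independent of that PCR.

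The bases before the start of HBEGF are shown because it is the gene that was called, at 2-fold or more, at every probe set. RefSeq's sequence of GRCh38.p14 for the 250 bases before the start is chr5:140346604-140346853 on the minus strand, printed 5′ to 3′. Capitals mark the GC box, GGGCGG on either strand, of which there are 5 matches, 2 of them overlapping.
HBEGF: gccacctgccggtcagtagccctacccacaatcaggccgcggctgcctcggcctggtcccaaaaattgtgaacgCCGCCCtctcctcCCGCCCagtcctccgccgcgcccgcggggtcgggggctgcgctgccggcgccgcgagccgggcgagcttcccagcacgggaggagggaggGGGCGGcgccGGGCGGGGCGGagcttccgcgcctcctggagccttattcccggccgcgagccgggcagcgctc
A GC box was found in 42.6% of 35116 such windows of all genes. The window held no TGANTCA, the sequence bound by AP-1, on either strand, no TGACGTCA, the cyclic AMP response element, and no TATAAA, the TATA box, on either strand. These letters occur in 6.57%, 1.65% and 10.7% of all windows. GC made up 76.4% of the window, against a median of 58% over all windows. These are matches of letters in this window only.

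Over the 6 arrays, the genes whose course was closest to that of HBEGF were AKAP8L, CCL20 and PKIB. Each was taken relative to its own DMSO mean at the brightest probe set. AKAP8L encodes a nuclear protein named for its likeness to an anchor of kinase A, CCL20 a chemokine and PKIB an inhibitor of kinase A. Their root mean square distances from HBEGF were 0.0436, 0.0515 and 0.0621 on the log2 scale, and their log2 fold changes were 1.37, 1.42 and 1.43. The 6 arrays make only 2 groups, so this likeness rests mainly on the size of the change.

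EREG encodes epiregulin, a ligand of EGFR and ERBB4. Its brightest probe set (11732719_at) read 10.21, 10.33 and 10.49 in DMSO and 10.57, 10.64 and 10.63 with anlotinib. The groups did not overlap, but DMSO 3 came close to the lowest treated array, and the log2 fold change was 0.27 (SE 0.07, 95% interval 0.10 to 0.44, adjusted p = 0.0159 from limma). The second (11732718_at) read 9.32, 9.26 and 9.21 in DMSO and 9.86, 9.77 and 9.90 with anlotinib, a log2 fold change of 0.58 (SE 0.05). The third (11732720_a_at) read 8.16, 8.11 and 8.06 against 8.59, 8.52 and 8.49, with 0.43 (SE 0.05). These 3 probe sets were thus higher by 1.2-fold to 1.5-fold, none of them called. The fourth (11763822_at), at 5.21, 5.61 and 5.6 in DMSO and 5.46, 5.52 and 5.45 with anlotinib, lay below the lower quartile of the table and had a log2 fold change of 0 with a 95% interval of −0.25 to 0.26.

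TGFA encodes transforming growth factor α, the ligand of EGFR best known in the exocrine pancreas. Its brightest probe set (11728302_at) read 8.49, 8.48 and 8.36 in DMSO and 8.31, 8.39 and 8.41 with anlotinib. The groups overlapped, and the log2 fold change was −0.07 (95% interval −0.20 to 0.06, adjusted p = 0.300 from limma). The probe set 11745160_s_at read 7.52, 7.55 and 7.42 against 7.44, 7.55 and 7.46, and 11728303_at read 7.16, 7.22 and 7.19 against 7.17, 7.14 and 7.33. Their log2 fold changes were −0.01 and 0.02, and that of the dimmest, 11745159_a_at, was −0.10, and the groups overlapped at each. The 95% intervals of the 4 probe sets together ran from −0.23 to 0.16, which leaves out a change of the size seen for HBEGF.

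ADAM17, also called TACE, is the protease that releases several of these ligands. Its 3 probe sets differed in the same direction. The brightest (11731110_at) read 9.65, 9.68 and 9.68 in DMSO and 10.42, 10.31 and 10.43 with anlotinib. The gap between the groups was far larger than the spread within either, and the log2 fold change was 0.72 (SE 0.05, 95% interval 0.61 to 0.83, adjusted p = 1.71e-05 from limma). The probe set 11731109_a_at read 7.94, 8.08 and 7.93 in DMSO and 8.84, 8.79 and 8.94 with anlotinib, a log2 fold change of 0.88 (SE 0.06). The probe set 11747645_a_at read 7.66, 7.80 and 7.82 against 8.57, 8.61 and 8.66, with 0.86 (SE 0.06). ADAM17 was thus higher by 1.64-fold to 1.84-fold, under the 2-fold limit at each probe set, and 734 of the 15253 genes had a higher log2 fold change at the brightest probe set. The 95% interval of 11731109_a_at, 0.73 to 1.02, reaches past that limit.

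EGFR differed with the probe set that read it. At the brightest (11725104_a_at) the DMSO arrays read 9.17, 9.07 and 9.10 and the anlotinib arrays 10.08, 9.97 and 10.11. The groups were well apart, and the log2 fold change was 0.94 (SE 0.05, 95% interval 0.81 to 1.07, adjusted p = 9.97e-06 from limma), just under the 2-fold limit. This probe set was the brightest only with the treated arrays included. In DMSO alone 11725103_s_at was brighter, with a mean of 9.35 against 9.11, and its log2 fold change was 0.06. The probe set 11751983_a_at read 7.99, 8.07 and 7.95 against 8.97, 8.97 and 9.16 and was the one called, with 1.03 (SE 0.07). It was no longer called without DMSO 3, where the fold was 2 after rounding but just under the limit, or without anlotinib 3 (0.96, or 1.95-fold). The probe sets 11742247_a_at and 11733760_a_at had log2 fold changes of 0.81 (SE 0.08) and 0.67 (SE 0.05). Their arrays read 7.92, 7.68 and 7.63 in DMSO and 8.51, 8.53 and 8.61 with anlotinib for the former. For the latter they read 7.94, 7.89 and 7.82 against 8.50, 8.56 and 8.60. The groups of both were apart by more than the spread within a group.

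The 2 other EGFR probe sets differed far less. The probe set 11725103_s_at read 9.35 on all 3 DMSO arrays and 9.38, 9.46 and 9.37 with anlotinib, a log2 fold change of 0.06 (95% interval −0.04 to 0.15, adjusted p = 0.267 from limma). The probe set 11725102_at read 7.38, 7.41 and 7.29 against 7.52, 7.44 and 7.57, with 0.15 (95% interval 0.02 to 0.28, adjusted p = 0.0539 from limma). The treated arrays were all above the control arrays in both, by small margins, and neither passed the FDR. The annotation of the array ties both of these to the RefSeq transcript of the full-length receptor. It ties 11742247_a_at and 11733760_a_at to shorter RefSeq transcripts, which encode secreted forms without the kinase domain. The brightest probe set and the one called, which had the largest changes, are tied to no current RefSeq transcript. That is common among the members' probe sets and does not set these apart. It also holds for HBEGF 11755981_a_at, which was called, and for TGFA 11728303_at, with a log2 fold change of 0.02. A name with _a_ marks a probe set shared by several transcripts of 1 gene, so the annotation does not settle which transcripts were read. A name with _s_ or _x_, as in 11725103_s_at and in the brightest probe sets of HBEGF and ERRFI1, marks probes that may also bind transcripts of other genes.

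**Figure D2:**
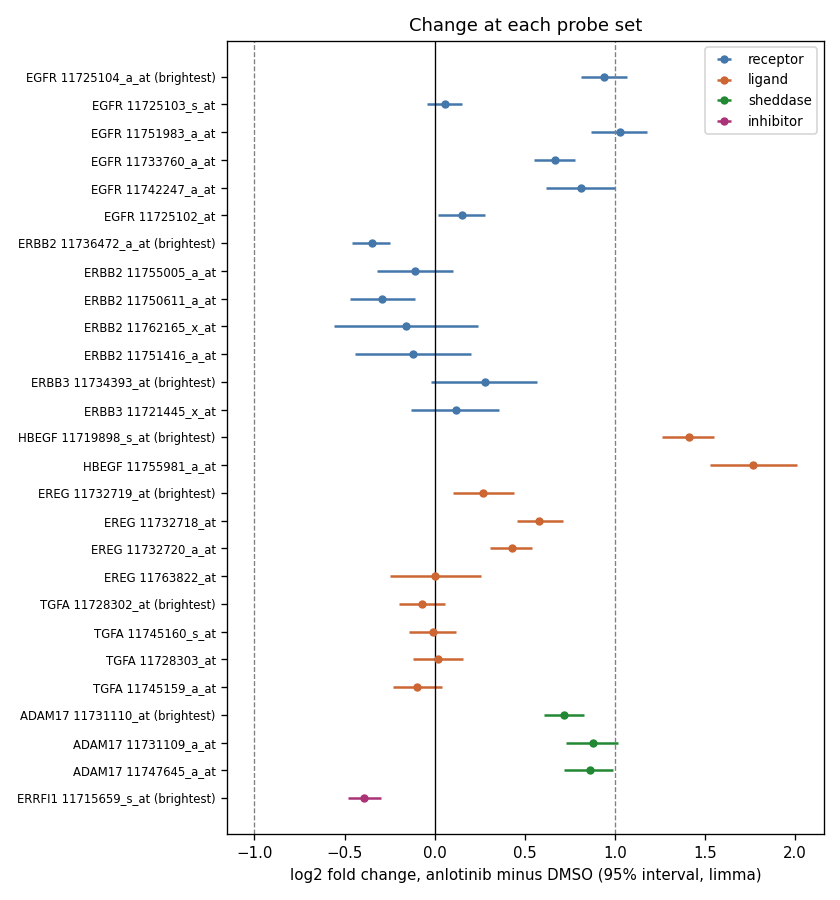
Log2 fold change (anlotinib minus DMSO) with its 95% interval from limma at each of the 27 probe sets, colored by the role of the gene, with dashed lines at a 2-fold change in either direction. The intervals of HBEGF lie past the upper line, those of ADAM17 and of 4 EGFR probe sets lie between 0.55 and 1.18, and those of the 2 other EGFR probe sets lie near 0.

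The split among the EGFR probe sets was tested within arrays, as the signal of the brightest probe set minus that of another on the same array. The brightest was chosen with the treated arrays included, which favors a probe set that rose, so the test is not independent of that choice. The 2 probe sets set against it first are those that did not pass the FDR, so they too were picked by their result. Against 11725103_s_at this difference was −0.18, −0.28 and −0.25 in DMSO and 0.69, 0.51 and 0.74 with anlotinib. The treated arrays were all above the control arrays, and the mean difference changed by 0.88 on the log2 scale (p = 0.1 by a two-sided exact permutation test, which cannot go lower with 3 samples against 3). Against 11725102_at it was 1.78, 1.65 and 1.81 in DMSO and 2.56, 2.53 and 2.54 with anlotinib, a change of 0.79 (p = 0.1 by the same exact permutation test). Over the 19 pairs of probe sets of the members, both exact permutation p-values were 0.211 after Benjamini-Hochberg adjustment. In a limma fit to such differences of all 20605 pairs, which was added after the data had been seen, the adjusted p was 2.41e-04 and 1.53e-04. In that fit 6 of the 19 pairs passed an FDR under 0.05, against 31.0% of all pairs, and 0 of the 19 also changed by 2-fold, against 1.84%. Larger changes than these 2 were found in 2.99% and 4.11% of all pairs. The other 4 pairs that passed were EGFR 11733760_a_at (0.27), HBEGF (−0.36), ERBB2 11755005_a_at (−0.24) and EREG 11763822_at (0.26). For the remaining EGFR probe sets the change was −0.09 and 0.13, with adjusted p = 0.413 and 0.214 from limma.

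**Figure D3:**
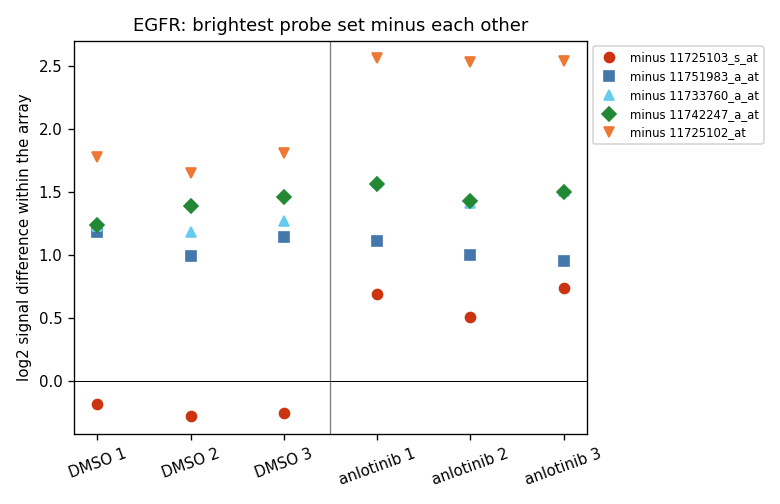
Difference in log2 signal between the brightest EGFR probe set and each of the 5 others on the same array, for 3 DMSO and 3 anlotinib arrays. The difference from 11725103_s_at is −0.28 to −0.18 in DMSO and 0.51 to 0.74 with anlotinib, and that from 11725102_at is 1.65 to 1.81 in DMSO and 2.53 to 2.56 with anlotinib.

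The sequences before the EGFR starts are shown because RefSeq's table of GRCh38.p14 gives 2 starts for the gene. Whether the starts bear on the split among its probe sets was not tested. Both windows are the 250 bases before a start on the plus strand, chr7:55018767-55019016 for the first and chr7:55109589-55109838 for the second. Capitals mark matches to the GC box, the AP-1 sequence or the TATA box, as spelled for HBEGF, on either strand.
EGFR first start: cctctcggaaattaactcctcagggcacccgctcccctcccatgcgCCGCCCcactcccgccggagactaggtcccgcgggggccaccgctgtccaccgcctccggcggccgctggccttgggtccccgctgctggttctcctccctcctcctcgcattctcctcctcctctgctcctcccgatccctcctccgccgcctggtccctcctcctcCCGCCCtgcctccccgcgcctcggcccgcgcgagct
EGFR second start: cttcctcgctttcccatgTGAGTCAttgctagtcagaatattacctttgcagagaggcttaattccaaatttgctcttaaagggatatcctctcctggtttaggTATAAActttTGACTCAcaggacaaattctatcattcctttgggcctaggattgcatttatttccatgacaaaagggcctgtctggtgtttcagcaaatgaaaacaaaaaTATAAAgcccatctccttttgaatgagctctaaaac
The first window is 73.6% GC and holds 2 matches to the GC box and none to the other motifs. The second is 38.8% GC and holds 2 matches to TGANTCA and 2 to TATAAA. Which start the transcripts in these samples used was not measured, and a match is not a bound site.

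ERBB2, the partner receptor also known as HER2, was lower with anlotinib at 2 of its 5 probe sets. At the brightest (11736472_a_at) the DMSO arrays read 7.74, 7.68 and 7.74 and the anlotinib arrays 7.41, 7.37 and 7.32. The groups did not overlap, and the log2 fold change was −0.35 (SE 0.04, adjusted p = 3.72e-04 from limma), or 1.28-fold lower. The probe set 11750611_a_at read 5.90, 5.82 and 5.61 against 5.44, 5.52 and 5.49, with −0.29 (SE 0.08, adjusted p = 0.0134 from limma). At the other 3 the groups overlapped, with log2 fold changes of −0.11, −0.16 and −0.12 and signals of 4.8 to 6.5.

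ERBB3, the receptor of neuregulins, was read by 2 dim probe sets. The brighter (11734393_at), which the annotation ties to a short secreted form, read 6.05, 5.69 and 5.64 in DMSO and 6.08, 6.23 and 5.91 with anlotinib. DMSO 1 lay among the treated arrays, and the log2 fold change was 0.28 (95% interval −0.02 to 0.57, adjusted p = 0.0978 from limma). Without DMSO 1 it was 0.41 (adjusted p = 0.0127 from limma, in a range of 0.0127 to 0.255 over all alternatives). It also passed the FDR with a trended, robust variance in limma (adjusted p = 0.0467) and with the median of its probe sets (adjusted p = 0.0332). The other (11721445_x_at) read 5.30, 5.46 and 5.22 against 5.41, 5.27 and 5.65, with 0.12 (95% interval −0.13 to 0.36). At neither probe set did ERBB3 pass the FDR with all 6 arrays and the variance model used throughout.

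ERRFI1, the feedback inhibitor of EGFR, was lower with anlotinib. Its only probe set (11715659_s_at) read 13.64, 13.66 and 13.70 in DMSO and 13.28, 13.30 and 13.25 with anlotinib. The gap between the groups was far larger than the spread within either, and the log2 fold change was −0.39 (SE 0.04, 95% interval −0.48 to −0.30, adjusted p = 1.34e-04 from limma), or 1.31-fold lower. The signal lay above 99.2% of the tested probe sets, near the top of the scale. Whether the scale is compressed there was not tested. Of all genes, 27.5% had a larger change in either direction.

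The pathway around these receptors was read through 5 lists of other genes, of which 58 of 63 were measured. At the brightest probe set 0 of these 58 were called with limma in either direction. At an FDR under 0.05 alone 18 were higher and 17 lower, against 25.4% and 29.7% of all tested genes. Their median log2 fold change was −0.02, and that of all genes was −0.04. Among other ERBB receptors and ligands 3 of 7 were measured, and 0 passed that FDR. The largest of these was NRG1, which encodes the neuregulins bound by ERBB3 and ERBB4, at 0.11 (SE 0.04, adjusted p = 0.0510 from limma). Its 8 probe sets, however, ran from −0.07 to 1.03, 6 dimmer ones were higher at an FDR under 0.05, and 2 of these were called. One of these (11741304_a_at) read 6.23, 6.34 and 6.29 in DMSO and 7.42, 7.15 and 7.37 with anlotinib, and the other (11755968_a_at) read 4.91, 5.56 and 5.37 against 6.34, 6.17 and 6.42. Both had a log2 fold change of 1.03, with SE of 0.08 and 0.16. The array groups were apart in both.

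Of 11 genes of ligand shedding, 3 were higher and 3 lower at that FDR, between −0.33 and 0.28. Of all tested genes, 25.4% were higher and 29.7% lower at it. ADAM10, the protease that releases EGF and betacellulin, had −0.33 (SE 0.05), with signals of 9.48, 9.47 and 9.46 in DMSO and 9.08, 9.11 and 9.21 with anlotinib. It was on the other side of 0 from ADAM17. RHBDF2, the iRhom that carries ADAM17 to the cell surface, was chosen after its values were seen and had 0.28 (SE 0.04). Of 13 adaptors and first effectors, 3 were higher and 6 lower. SOS2, an exchange factor that loads RAS with GTP, had −0.62 (SE 0.06), from 8.46, 8.57 and 8.66 to 7.91, 8.02 and 7.91. Its relative SOS1, also chosen after its values were seen, had −0.49 (SE 0.04).

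Receptor down-regulation, by which active receptors are tagged, sorted and degraded, had the widest range of the 5 lists. Of 20 genes 8 were higher and 4 lower, with a median of 0.14. The list does not separate genes that favor this process from genes that restrain it. STAM, a sorting adaptor that holds ubiquitinated receptors on endosomes, had 0.78 (SE 0.05) at its brightest probe set, with 9.36, 9.45 and 9.40 in DMSO and 10.14, 10.25 and 10.17 with anlotinib. Its other probe set was called, at 1.02 (SE 0.05). The following were chosen after their values were seen. HGS, the partner of STAM, had 0.66 (SE 0.06), UBASH3B, a phosphatase that binds CBL, 0.68 (SE 0.04), and SOCS5, a suppressor of EGFR signaling, 0.61 (SE 0.04). RNF41, the ubiquitin ligase of ERBB3 also called NRDP1, had −0.66 (SE 0.06). CBL, the main ubiquitin ligase of EGFR, had −0.16 (SE 0.06). Of 11 genes of receptor sorting and traffic, 4 were higher and 4 lower. RAB7A, a GTPase of late endosomes, had 0.53 (SE 0.04), with signals of 11.34, 11.36 and 11.33 in DMSO and 11.89, 11.86 and 11.87 with anlotinib.

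**Figure D4:**
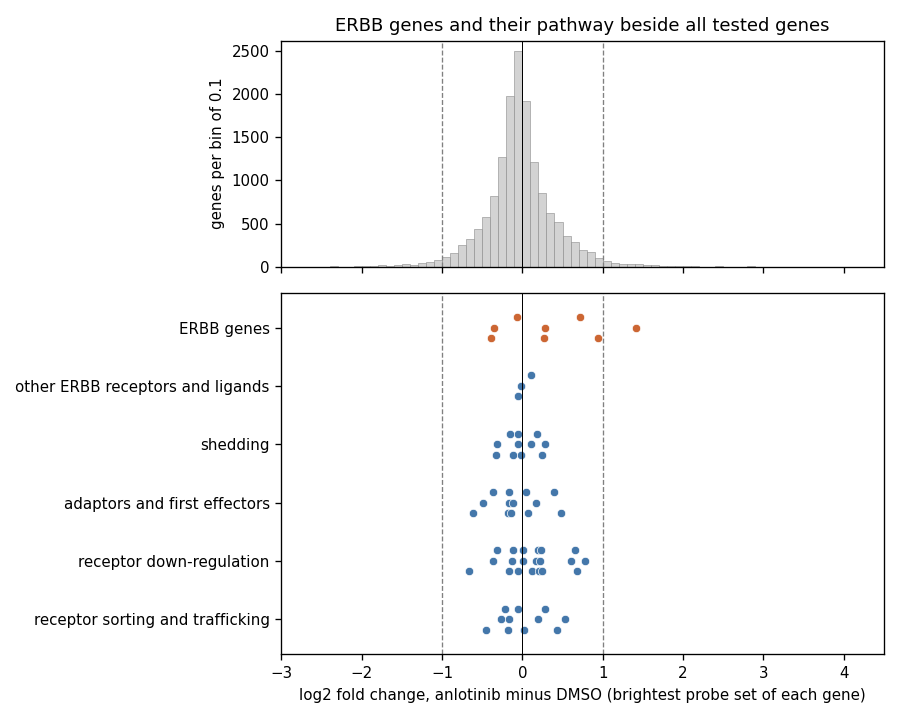
Log2 fold change (anlotinib minus DMSO) of each gene at its brightest probe set. The upper panel counts all 15253 tested genes in bins of 0.1, the lower panel shows the 8 ERBB genes and the 58 genes of the 5 lists, and dashed lines mark a 2-fold change. HBEGF at 1.41 is the only gene of the lower panel past a dashed line.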

How the data were processed

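RNA of PANC-1 cells, 3 samples with anlotinib and 3 with DMSO, was read on Affymetrix PrimeView arrays, and samples were grouped by their labels. The authors deposited log2 signals from RMA for 39219 probe sets. RMA adjusts for background, normalizes across arrays and gives 1 value per probe set. The study gives the same number as left after its filters. Its methods name a filter on the lowest 20% of signals and another on a within-group CV over 25%. Shares of the table and its lower quartile thus refer to a filtered table. Whether those filters removed the genes not measured here is not known. Control probe sets (73) and probe sets with a CV over 25% within a group on the linear scale (83) were left out. The study does not give the scale of its own CV, so why these 83 were still present is not known. To the other 39063, a limma model was fitted (version 3.58.1, R 4.3.3), with Benjamini-Hochberg adjustment across the whole set. Arrays carry no counts, so their number limits the precision. The labels do not say whether samples were separate cultures, so p-values measure the spread between these samples only, which may be technical. An exact permutation test of 3 against 3 cannot go below p = 0.1.

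The platform's annotation gave the gene of each probe set, and entrez identifiers matched RefSeq for 35843 of 35858 probe sets with 1 gene. Named are all members at every probe set, the list member with the largest change where none was called, the 3 genes closest to HBEGF and the markers, and other genes are marked as chosen after seeing their values. The members and lists were chosen with earlier results of these data known. Upstream sequences are from RefSeq (GRCh38.p14). The fit was tested on simulated data. Alternatives covered the CV filter, low signals, normalization, centring, a limit of 1.5-fold, the variance model, the replicate number as a block, the choice of probe set and each array left out.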

Additional observations from a re-analysis of the deposited data

How the results depend on the processing

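HBEGF was called under all 17 alternatives, with a log2 fold change of 1.37 to 1.77, and EGFR, ADAM17, ERBB2, EREG and ERRFI1 kept their direction, at 0.85 to 0.98, 0.69 to 0.88, −0.38 to −0.29, 0.20 to 0.58 and −0.40 to −0.36. With a limit of 1.5-fold, 9 of 27 member probe sets and 3 of 8 member genes (HBEGF, EGFR and ADAM17) were called higher. Of 58 pathway genes, 4 were called higher and 2 lower at that limit. In all, 6141 of 39063 probe sets were called in either direction, against 1596 at 2-fold, since the limit is lower. A share by direction and a share of all genes were not computed at this limit. At the probe set with the smallest p, 2 pathway genes were called higher, NRG1 and STAM. Between 2 and 3 member probe sets were called higher with each array left out in turn, and 1576 to 1614 probe sets in all. The upper ends of the ranges of EREG and HBEGF come from the choice of probe set. No alternative read EGFR at 11725103_s_at or 11725102_at alone, where the log2 fold change was 0.06 and 0.15, so its range does not cover the split among its probe sets. TGFA was between −0.11 and 0.01 and ERBB3 between 0.20 and 0.41, neither of them called. With the lowest 40% of signals left out ERBB3 had no tested probe set, and without probe sets that may cross-hybridize ERRFI1 had none.

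The labels do not say whether samples of the same replicate number were handled together, and the correlations given next cannot settle it. The deviations of same-numbered samples correlated with r of 0.167, 0.00625 and −0.145, and 2 of the 6 samples correlated best with their own number. With the replicate number as a block, 3 member probe sets and 1 member gene were called higher, as without it, and 1596 probe sets in all. The change in the EGFR difference within arrays was 0.84 to 0.95 and 0.75 to 0.82 with each array left out. In the limma fit to all pairs, chosen after seeing the data, it was 0.88 and 0.79 (adjusted p = 2.41e-04 and 1.53e-04). The brightest probe set and the 2 set against it were picked by their values, so these p-values are not independent of that choice.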
